A study of Mus musculus with 3 samples.

Results

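The genes described here encode the heat shock proteins, the J-domain proteins and the chaperonins, the cell's main machinery for folding proteins. They were chosen by symbol: the Hspa, Hspb, Hspd, Hspe, Hsph and Hsp90 genes, the Dnaja, Dnajb and Dnajc genes, and the chaperonin genes Cct2 to Cct8 and Tcp1, each with at least 1 transcript annotated as protein_coding. The rule found 81 genes among the 55536 genes of the deposited tables and used no measured value. They were measured in 3 libraries of 1 condition: primary bone-marrow-derived macrophages of the mouse strain C57BL/6J, exposed for 20 min to Lipid A at 100 ng/ml and then fractionated, with the cytosolic RNA depleted of ribosomal RNA and sequenced. Lipid A, the lipid anchor of bacterial endotoxin, is what the receptor Tlr4 binds. The labels give no genotype beyond the strain, no sex and no age, and no untreated or nuclear libraries were analysed here, so nothing below is a response to Lipid A. The libraries are numbered as biological replicates but share 1 donor identifier, so an SD is the spread between these samples and part of it may be technical.

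Hsp70 proteins bind exposed hydrophobic stretches of a client protein and release them in a cycle driven by ATP. J-domain proteins bring clients and start the ATP hydrolysis, and Hsp110 proteins exchange the nucleotide. Hsp90 proteins act later, on nearly folded clients such as kinases and receptors, and the chaperonins enclose a client in a barrel, Hsp60 with its lid Hsp10 in mitochondria and the CCT ring in the cytosol. In macrophages the Hsp90 of the endoplasmic reticulum (ER), encoded by Hsp90b1, is known for folding Toll-like receptors. Many of these genes are switched on by heat through the factor Hsf1, which binds heat shock elements, and the ER members by the unfolded protein response, through ER stress elements.

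Sequence upstream of the gene start is shown for genes that carry these elements, because the heat-inducible genes and the ER genes are followed below as separate lists. Promoter windows from RefSeq (GRCm38.p6), from 250 bases before to 50 after a gene start, were found for 66 of the 81 genes. A heat shock element was searched as the letters GAANNTTC or TTCNNGAA, which read the same on both strands. It was present in 19 of the 66 chaperone genes (28.8%), against 17.0% of all 27025 genes with a window. Of the 10 genes of the heat-inducible list, Hspa8 and Hsp90aa1 had no window. Of the 8 others 7 held the element, the exception being Dnajb1. Among the genes of the ER list with a window 1 of 7 did. The ER stress element, searched on both strands as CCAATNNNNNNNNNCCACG, was in 3 chaperone genes, Hspa5, Hsp90b1 and Dnajc3, all of the ER, against 0.137% of all genes. A match of letters is a description of the window and not evidence that a factor bound there.

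The first set holds heat shock elements, in capitals. Hspa1a (chr17:34972157-34972406, minus strand) and Hspa1b (chr17:34959239-34959488, minus strand) encode the strongly heat-inducible Hsp70, and their upstream windows share 247 of 250 bases. Hspe1, which encodes Hsp10, lies head to head with Hspd1, which encodes Hsp60, and the same 3 overlapping matches were found in the windows of both genes. Its element (chr1:55088059-55088076, plus strand) and that of the J-domain gene Dnajb6 (chr5:29735852-29735864, plus strand, 2 overlapping matches) lie within exons annotated in GENCODE M21 and are given without their surroundings.
Hspa1a: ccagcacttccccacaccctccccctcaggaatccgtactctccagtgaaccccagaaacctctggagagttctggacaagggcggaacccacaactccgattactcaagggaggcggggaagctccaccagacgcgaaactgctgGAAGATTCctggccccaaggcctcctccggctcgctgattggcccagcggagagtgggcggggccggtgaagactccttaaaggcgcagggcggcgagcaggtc
Hspa1b: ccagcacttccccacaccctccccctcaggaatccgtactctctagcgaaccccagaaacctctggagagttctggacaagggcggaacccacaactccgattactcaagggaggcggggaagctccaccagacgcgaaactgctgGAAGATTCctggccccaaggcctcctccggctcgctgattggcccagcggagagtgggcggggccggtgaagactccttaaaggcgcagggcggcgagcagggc
Hspe1: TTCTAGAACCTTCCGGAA
Dnajb6: GAATCTTCCGGAA

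The second set holds ER stress elements, in capitals. Hsp90b1 (chr10:86705510-86705694, minus strand) held 2, on opposite strands. Dnajc3 (chr14:118937682-118937931, plus strand) and Hspa5 (chr2:34772025-34772043, plus strand) held 1 each. The Hspa5 element lies within an exon of 1 annotated transcript and is given alone.
Hsp90b1: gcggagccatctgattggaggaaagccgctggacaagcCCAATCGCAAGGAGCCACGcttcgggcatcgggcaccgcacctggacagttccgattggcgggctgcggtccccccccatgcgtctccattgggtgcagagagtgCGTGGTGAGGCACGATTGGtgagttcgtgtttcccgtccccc
Dnajc3: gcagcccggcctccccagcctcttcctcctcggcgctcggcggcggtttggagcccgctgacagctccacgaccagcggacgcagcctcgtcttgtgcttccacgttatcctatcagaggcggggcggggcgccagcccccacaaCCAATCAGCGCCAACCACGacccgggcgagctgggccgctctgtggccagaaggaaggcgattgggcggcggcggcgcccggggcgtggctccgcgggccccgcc
Hspa5: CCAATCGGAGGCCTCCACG

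The libraries held 27392626, 81597761 and 37176950 expected counts in replicates 1, 2 and 3. All 8 macrophage markers examined were at 17.6 TPM or more in every library, with Csf1r, the receptor for the macrophage growth factor, at 260, 202 and 180 TPM. The 8 markers of other marrow and tissue cells had means of at most 0.163 TPM, and the red cell gene Hbb-bs was listed at 0. Levels below are transcripts per 1000000 (TPM) as deposited, which are per length and can be set side by side between genes. Nuclear-encoded protein-coding genes, called protein-coding genes below, held only 25.0%, 22.0% and 19.7% of the TPM in replicates 1, 2 and 3. The rest was all other RNAs, including the mRNAs of the mitochondrial genome. The TPM of most genes was likewise higher in replicate 1 than in replicate 3, with median deviations from the mean of the libraries of 0.14, -0.01 and -0.13 on the log2 scale over all protein-coding genes. Libraries were therefore compared after TPM was rescaled to a fixed sum over nuclear-encoded protein-coding genes.

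Of the 81 chaperone genes, 57 reached 1 TPM in all 3 libraries, against 40.7% of the 21888 nuclear-encoded protein-coding genes. Their median level was 4.54 TPM, against 0.143 TPM over those protein-coding genes, a level that 73.6% of them did not reach. Among genes that reached 1 TPM in every library, the medians were nearer, at 9.85 TPM for the chaperones and 6.96 TPM for protein-coding genes. The chaperones held 0.697%, 0.682% and 0.659% of the protein-coding TPM in replicates 1, 2 and 3. Levels were spread widely: 4 genes averaged 100 TPM or more, 24 were between 10 and 100, 29 between 1 and 10, and 24 below 1. The 4 highest, Hspa8, Hspa5, Hsp90ab1 and Hsp90b1, held 51.0% of the summed chaperone TPM.

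**Figure D1:**
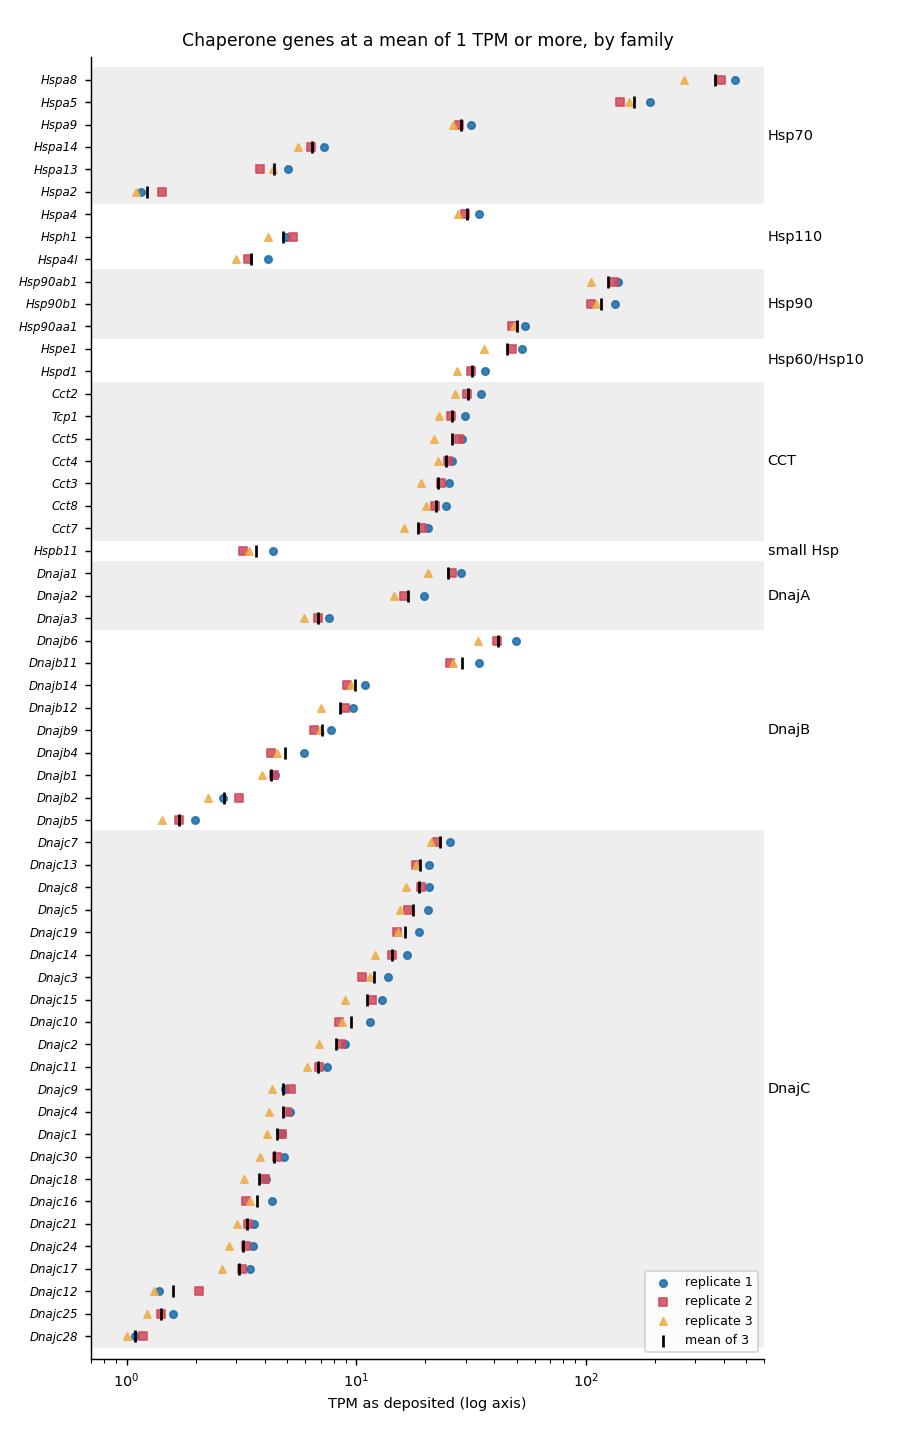
TPM as deposited (horizontal log axis) of the 57 chaperone genes with a mean of 1 TPM or more, grouped by family. Points are the 3 libraries and the bar is their mean; Hspa8 stands highest at a mean of 367 TPM and the CCT subunits lie close together between 18.7 and 30.8 TPM.

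The Hsp70 family ran from one of the most abundant mRNAs of the cells to almost none. Hspa8 (chr9:40800984-40810087, plus strand) encodes the constitutive cytosolic Hsp70, which also strips clathrin from vesicles. It had 445, 387 and 269 TPM in replicates 1, 2 and 3 and was the 62nd highest nuclear-encoded protein-coding gene by mean TPM. Its transcripts made up 25.5%, 25.8% and 20.7% of the chaperone TPM, the lowest share in replicate 3. Hspa5 (chr2:34771970-34777547, plus strand), which encodes the ER Hsp70 known as BiP, had 191, 141 and 155 TPM and stood below Hspa8 in every library. The mitochondrial Hsp70 gene Hspa9, whose product pulls proteins through the inner membrane, had 31.6, 28.1 and 26.5 TPM. Next in the family, far lower, were Hspa14, whose product works at the ribosome (6.41 ± 0.825 TPM, SD, n = 3), and the ER member Hspa13 (4.39 ± 0.612 TPM, SD, n = 3).

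The inducible Hsp70 genes were near the limit of 1 TPM. Hspa1a had 1.04, 1.10 and 0.80 TPM, on either side of that limit, and Hspa1b had 0.30, 0.36 and 0.35 TPM. The coding sequences of the main transcripts of both genes agree at 99.6% of aligned bases, with 8 mismatches, and the longest stretch the transcripts share is 638 bases. Reads from such stretches are divided between the genes by the estimate. The sum of both genes, which depends little on that division because the transcripts are 2967 and 2803 bases long, was 1.34, 1.46 and 1.15 TPM. Hspa8 stood 332, 265 and 234 times above that sum. The testis-enriched relatives Hspa2 (1.16, 1.42 and 1.10 TPM) and Hspa1l (0.31, 0.29 and 0.38 TPM) were also low, and Hspa12a and Hspa12b, distant members of the family, did not exceed 0.04 TPM in any library.

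The nucleotide exchange factors of the Hsp110 family were all measured above 1 TPM, but at different levels. Hspa4 had 34.2, 29.7 and 27.7 TPM. Hsph1, a gene known to be strongly induced by heat, had 4.96, 5.30 and 4.15 TPM, and Hspa4l had 4.12, 3.38 and 2.99 TPM. Hspa4 was thus 6.90, 5.60 and 6.68 times as high as Hsph1, with no overlap between the genes.

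The cytosolic and ER Hsp90 genes stood close together and well above the inducible form. Hsp90ab1 (chr17:45567775-45573271, minus strand), the constitutive cytosolic gene, had 138, 132 and 105 TPM. Hsp90b1 (chr10:86690209-86705509, minus strand), the ER gene, had 134, 105 and 111 TPM, so that its range overlapped that of Hsp90ab1. Hsp90aa1, the cytosolic gene known to be raised by stress, had 54.4, 47.9 and 48.7 TPM, below both others in every library. Hsp90ab1 was 2.53, 2.76 and 2.17 times as high as Hsp90aa1. Their coding sequences agree at 76.7% of aligned bases and share no stretch longer than 33 bases.

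The mitochondrial chaperonin was expressed with its lid. Hspe1, for the lid Hsp10, had 52.8, 47.7 and 36.1 TPM, and Hspd1, for the barrel Hsp60, had 36.5, 31.7 and 27.5 TPM. From their RefSeq starts both genes are transcribed away from the shared elements shown above, although in M21 the Hspd1 gene extends past them to base 55088243. Hspe1 was 1.45, 1.50 and 1.31 times as high as Hspd1 in replicates 1, 2 and 3. Their annotated exons overlap by 112 bases on opposite strands, and whether the libraries kept the strand is not stated in the labels or headers.

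The subunits of the cytosolic CCT ring, which folds actin and tubulin and uses 1 copy of each subunit per ring, lay within a narrow band. Cct2 was the highest, at 35.0, 30.4 and 26.9 TPM, and Cct7 the lowest, at 20.5, 19.4 and 16.1 TPM. The other 5 measured subunits, Tcp1, Cct5, Cct4, Cct3 and Cct8, had means between 22.3 and 26.2 TPM. Within a library the highest subunit was 1.71, 1.56 and 1.67 times the lowest, and the coefficient of variation over the 7 was 16.9%, 14.7% and 15.9%. These 7 are the CCT genes of the rule with a mean of 1 TPM or more. For comparison, the highest and lowest Hsp90 genes differed 2.28 to 2.76 times within a library. The 6 Hsp70 genes with a mean of 1 TPM or more differed by far more, with means from 367 TPM (Hspa8) to 1.23 TPM (Hspa2). The band was not particular to CCT, since Hspe1 and Hspd1 differed only 1.45, 1.50 and 1.31 times. The zeta subunit gene Cct6a is outside the rule because M21 annotates no protein_coding transcript for it. At 27.1, 26.6 and 25.4 TPM it lay inside the band of the 7. The testis paralog Cct6b did not exceed 0.04 TPM, and Cct8l1 had 0 expected counts.

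**Figure D2:**
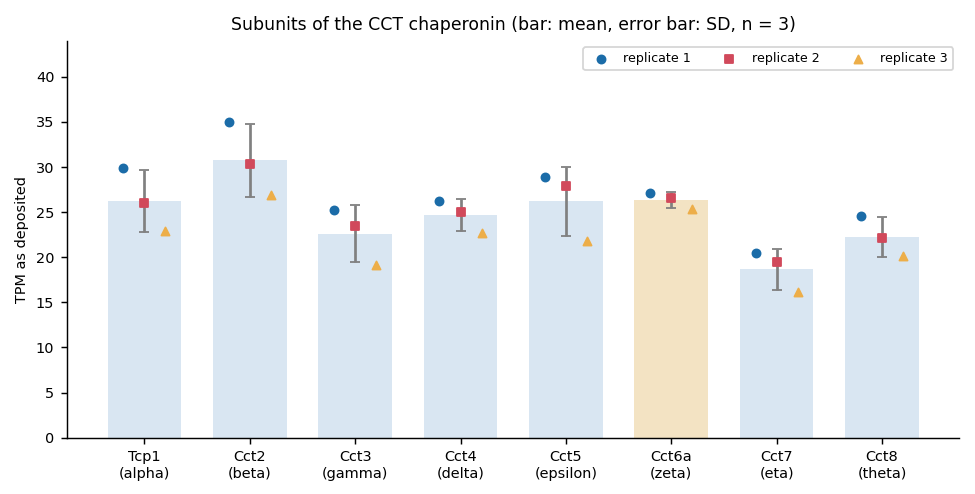
TPM as deposited (vertical axis from 0) of the 7 CCT subunits that met the rule and of Cct6a, drawn in another colour; bars are means, error bars SD (n = 3) and points the libraries. Cct2 is highest at 30.8 TPM and Cct7 lowest at 18.7 TPM, with Cct6a between them.

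Most J-domain genes were expressed, at moderate levels. Of 45, 35 reached 1 TPM in every library, against 40.7% of protein-coding genes. The median over all 45 was 4.54 TPM, and their summed TPM was 405, 349 and 315. The summed Hsp70 TPM was 1.68, 1.63 and 1.47 times that sum. Dnajb6, whose product keeps proteins with long glutamine tracts from aggregating, was the highest, at 49.5, 41.1 and 34.0 TPM. Below it came Dnajb11, a lumenal partner of BiP, at 34.3, 25.7 and 26.5 TPM, and Dnaja1, a general cytosolic partner of Hsp70, at 28.7, 26.2 and 20.6 TPM. The ranges of Dnajb6 and Dnajb11 overlapped, as did those of Dnajb11 and Dnaja1, while every library of Dnajb6 was above every library of Dnaja1.

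Members with dedicated tasks filled the next ranks. Dnajc7, whose product binds both Hsp70 and Hsp90, averaged 23.1 ± 2.33 TPM (SD, n = 3). The endosomal gene Dnajc13 averaged 19.0 ± 1.46 TPM, and Dnajc8, whose product is found with the spliceosome, 18.8 ± 2.17 TPM (SD, n = 3 each). Dnajc5, for the cysteine string protein of secretory vesicles, averaged 17.7 ± 2.63 TPM and the cytosolic Dnaja2 16.8 ± 2.57 TPM (SD, n = 3 each). Dnajb1, the cytosolic J-domain gene best known for its induction by heat, was lower than any of these, at 4.43, 4.40 and 3.89 TPM. Hspa8 stood 100.4, 87.9 and 69.0 times above it.

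The small heat shock proteins were nearly absent: of the 8 small heat shock protein genes only Hspb11 reached 1 TPM. Of protein-coding genes, 40.7% did so in every library. Small heat shock proteins hold unfolded proteins without ATP, and several are abundant in muscle and lens. Hspb11, whose product is a part of the transport machinery of cilia, had 4.36, 3.23 and 3.42 TPM. Hspb6 averaged 0.680 ± 0.0608 TPM and Hspb9 0.260 ± 0.0608 TPM (SD, n = 3 each). Hspb1, the most heat-inducible of the family in many cell types, had 0, 20 and 1.95 expected counts in replicates 1, 2 and 3, and was not detectable above 0.18 TPM in any library. Hspb3 and Hspb8 had no counts.

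In all, 22 chaperone genes were below 1 TPM in every library and 2, Hspa1a and Dnajc27, were on both sides of it. Of 17 genes known mainly from testis, muscle, brain or other tissues, 1 was detected, Hspa2, against 40.7% of protein-coding genes. There were 7 genes with 0 expected counts in all libraries, namely Dnajc5b, Dnajc22, Cct8l1, Hspb8, Hspb3, Dnajc5g and Dnajb8. A count of 0 allows up to 3 counts, or 0.110, 0.0368 and 0.0807 per 1000000 counts in replicates 1, 2 and 3, for counting error only. Some low values lie where another gene is transcribed from the opposite strand. Dnajb13 (0.48, 0.36 and 0.57 TPM) shares 305 exonic bases with the mitochondrial carrier gene Ucp2, which averaged 230 TPM. Because strandedness is not stated, it is unknown whether reads of the 2 genes were told apart there.

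Few neighbours in the order of levels were separated. Among the 15 highest chaperone genes there were 14 neighbouring pairs, and in 3 of them every library of the higher gene was above every library of the lower one. These were Hspa8 over Hspa5, Hspa5 over Hsp90ab1, and Hsp90b1 over Hsp90aa1. In 6 of the other 11 pairs the order was the same within each library although the ranges overlapped.

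Most genes examined that work with the chaperones were also expressed. Of all protein-coding genes, 40.7% reached 1 TPM in every library. Of 13 Hsp70 co-chaperones 12 reached 1 TPM in every library, led by Bag1 (39.2 ± 5.41 TPM) and Bag6 (33.4 ± 4.20 TPM) and followed by St13, which steadies Hsp70 on its client (30.5 ± 5.69 TPM; SD, n = 3 each). The exception was Bag2, at 0.34, 0.34 and 0.26 TPM. Of 14 Hsp90 co-chaperones 13 were detected, led by Ahsa1, which speeds the Hsp90 ATPase, at 62.2 ± 6.39 TPM, then Fkbp8 (45.9 ± 4.21 TPM) and the kinase adaptor Cdc37 (29.7 ± 4.88 TPM; SD, n = 3 each). Fkbp5, a gene known to respond to glucocorticoids, was the exception, at 0.87, 0.84 and 0.81 TPM. All 9 prefoldin and CCT cofactor genes were detected, led by Pfdn5 (60.7 ± 12.7 TPM, SD, n = 3). Among other chaperones 7 of 12 were detected, with Gak, a J-domain kinase of clathrin coats, highest at 23.8 ± 1.95 TPM (SD, n = 3).

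The heat shock factors themselves were low. Hsf1 had 4.31, 4.12 and 3.58 TPM, Hsf2 had 2.61, 2.23 and 2.36 TPM, and Hsf5 did not exceed 0.01 TPM. Hsbp1, whose product binds Hsf1, averaged 49.2 ± 6.54 TPM (SD, n = 3), well above the factors in every library.

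After rescaling, the spread of the chaperone genes between the 3 libraries was close to that of other genes, but this rested on replicate 2. Over the 57 genes with a mean of 1 TPM or more, the median SD of log2(rescaled TPM + 1) was 0.088, and over 9160 protein-coding genes of the same minimum it was 0.097. Without replicate 2 the medians were 0.0461 for the chaperone genes and 0.0829 for protein-coding genes. Of the genes with a mean of 5 TPM or more, Hspa14, Cct2, Tcp1, Dnaja3 and Cct8 had the smallest SDs, between 0.015 and 0.029. These included 3 subunits of the CCT ring, but its other members of the rule were less steady. Cct7, Cct3, Cct4 and Cct5 had SDs of 0.061, 0.065, 0.073 and 0.098, against a median of 0.089 over protein-coding genes with a mean of 5 TPM or more. Cct2 had 140, 138 and 137 rescaled TPM, and Tcp1 had 119, 118 and 117. Hspa8 had the largest SD at that minimum, 0.21, and among all 57 genes the low Dnajc12 had the largest, 0.34.

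Most genes of the ER list moved together and were low in replicate 2. Hspa5 had 763, 642 and 789 rescaled TPM in replicates 1, 2 and 3, and Hsp90b1 had 537, 478 and 566. For both genes replicate 2 stood apart below the other libraries. Of the 8 ER genes 7 were lowest in replicate 2, against 31.9% of protein-coding genes, and their median deviations from the mean of the libraries were 0.03, -0.15 and 0.11, against -0.01, 0.00 and 0.01 over all protein-coding genes. The exception was Dnajc1, whose product sits in the ER membrane, with a deviation of 0.07 in replicate 2. Because the genes moved together, the ratio of Hspa5 to Hsp90b1 was steady at 1.42, 1.34 and 1.39, and that of Dnajb11 to Dnajc3 at 2.50, 2.43 and 2.30. Among the 49 chaperone genes outside the list at the same level 11 were lowest in replicate 2. The list does not hold every J-domain gene of the ER membrane, and those outside it went both ways. Dnajb12, Dnajc18 and Dnajc14 had deviations of 0.08, 0.10 and 0.02 in replicate 2, and Dnajb14 and Dnajc16 had -0.09 and -0.13.

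ER folding genes outside the rule went the same way. The 11 examined, chosen after the values of the ER chaperones had been seen, were all lowest in replicate 2, with median deviations of 0.04, -0.09 and 0.08. They included the calcium-binding chaperones Calr (rescaled deviation in replicate 2 of -0.13) and Canx (-0.09), the disulfide isomerase Pdia3 (-0.16) and the BiP exchange factor Hyou1 (-0.09). Of the 8 macrophage markers 4 were lowest in replicate 2, with deviations such as -0.15 for Adgre1, while Cd68 had 0.05. Replicate 2 was the deepest library, and it had the lowest TPM of the nuclear RNA Malat1, which had 359, 248 and 763 TPM. The part of depth or of fractionation in the ER values was not tested.

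The genes of the heat-inducible list did not share 1 pattern. Hspa8, the constitutive gene that the list also holds, had 1781, 1757 and 1367 rescaled TPM. Replicates 1 and 2 thus lay together and replicate 3 below them, with deviations of 0.13, 0.11 and -0.25. Hspe1 had 0.06, 0.09 and -0.15 and Dnaja1 had 0.03, 0.08 and -0.10, also lowest in replicate 3. Hsp90aa1 went the other way, at -0.06, -0.06 and 0.12, and Hspd1 hardly moved, at 0.03, 0.01 and -0.03. Hsph1 had -0.12, 0.15 and -0.03 and Dnajb1 had -0.10, 0.06 and 0.05, both lowest in replicate 1. Over the 7 genes of the list with a mean of 1 TPM or more the median deviations were 0.03, 0.08 and -0.03, and 4 of 7 were lowest in replicate 3, against 31.6% of protein-coding genes. The heat-inducible list did not stand alone in this, since 5 of 7 CCT subunits were also lowest in replicate 3. So were 5 of 8 mitochondrial genes and 23 of the 49 chaperone genes outside the ER list, but these sets overlap the heat-inducible list. Hspe1 and Hspd1, both lowest in replicate 3, are in the heat-inducible and the mitochondrial lists. All 7 heat-inducible genes are among the 49. Early response genes of Tlr4 went different ways. Tnf had 165, 35.0 and 45.0 TPM as deposited and Nfkbia had 182, 73.9 and 51.3, both highest in replicate 1. Fos had 228, 179 and 270 TPM, highest in replicate 3. Replicate 3 also had the highest Malat1 and Neat1 levels, at 763 and 83.9 TPM, and the part of nuclear RNA in the Hspa8 value was not tested.

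Hspa8 and most genes of the ER list were low in different libraries, and the balance between the cytosolic and the ER Hsp70 differed accordingly. The ratio of Hspa8 to Hspa5 was 2.33, 2.74 and 1.73 in replicates 1, 2 and 3. The ratio of Hspa8 to its cytosolic partner Dnaja1 was 15.5, 14.8 and 13.0. The 8 mitochondrial genes went both ways, with median deviations of 0.01, 0.03 and -0.02. Hspe1 and Dnajc15 were low in replicate 3, at -0.15 and -0.13, while Dnajc19 had 0.07 there.

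**Figure D3:**
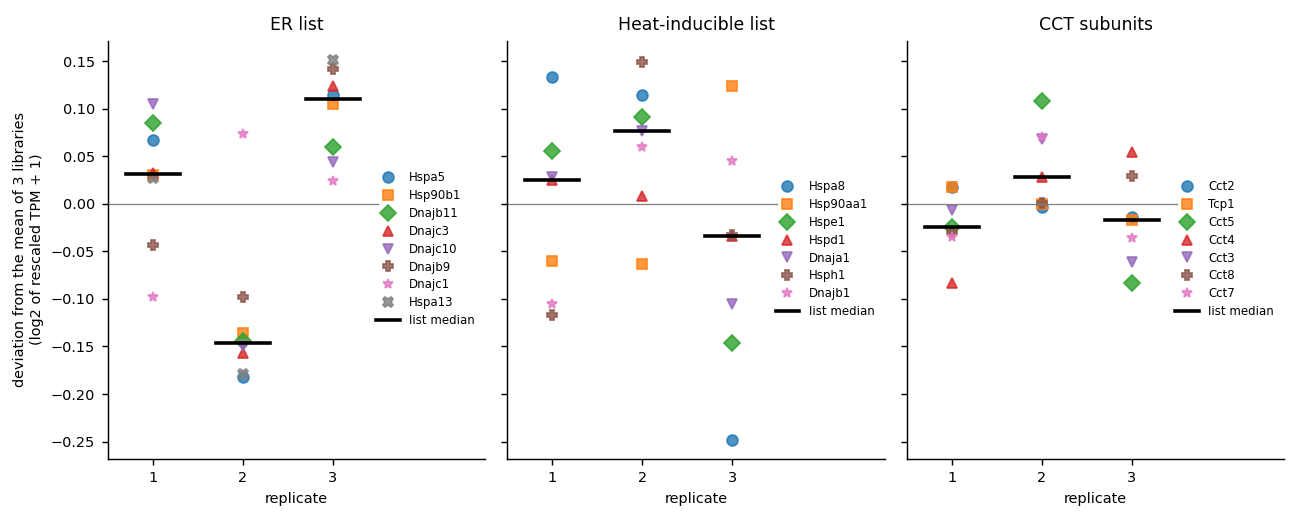
Deviation of log2(rescaled TPM + 1) from its mean over the 3 libraries (vertical axis) by replicate for the ER list (8 genes), the heat-inducible list (7 genes) and the 7 CCT subunits; the black bar is the list median. All genes of the ER list but Dnajc1 lie below 0 in replicate 2, and Hspa8 is lowest of its list in replicate 3 at -0.25.

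The transcript tables show in which annotated form these RNAs were counted. The median share of a gene's TPM in protein_coding transcripts was 98.1% for the chaperone genes, against 97.6% for protein-coding genes, both at a mean of 1 TPM or more. Under 75% was found in 6 of 57 chaperone genes (10.5%), against 13.8% of protein-coding genes. The lowest share, 12.7% ± 1.16 (SD, n = 3), belonged to Dnajc15, whose product sits in the inner mitochondrial membrane. Its coding transcript Dnajc15-202 had 1.70, 1.33 and 1.21 TPM. Most of its TPM was in Dnajc15-201, annotated for nonsense-mediated decay, with 6.41, 5.59 and 3.22 TPM, and in Dnajc15-203, a processed_transcript, with 4.81, 4.79 and 4.51 TPM. The second transcript table gave a coding share of 7.84% for this gene, so both tables placed little of it in the coding form.

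For other genes the tables differed more. Cct3 had 31.3% ± 2.44 of its TPM in Cct3-203, a transcript with a retained intron, in the first table and 6.47% ± 6.13 in the second (SD, n = 3 each). Dnajc7 had 36.7% ± 0.862 in the processed_transcript Dnajc7-203 in the first table and 17.8% ± 4.92 in the second. Hspa4-202, which retains an intron, was a steadier case, with 29.1% ± 1.30 in the first table and 38.1% ± 1.77 in the second. Dnajc5-204, annotated for nonsense-mediated decay, had 32.8% ± 1.39 and 41.9% ± 0.251 (SD, n = 3 each). Transcripts that share most of their exons are divided by an estimate, and these values are shares of that estimate.

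Among the highest genes, 16.2% ± 3.42 of the Hspa5 TPM was in Hspa5-204, a transcript annotated for nonsense-mediated decay, and 25.0% ± 1.57 in the second table. Hsp90aa1-204, with a retained intron, held 23.7% ± 2.32 of the Hsp90aa1 TPM, and 16.3% ± 7.47 in the second table (SD, n = 3 each). For Hspa8 the processed_transcript Hspa8-203 had 30.1 TPM in replicate 1, against 0.48 and 0.77 TPM in replicates 2 and 3, in the first table. The second table placed 20.0%, 12.0% and 1.92% of the gene's TPM there, so the libraries that stood out depended on the table. The coding transcripts Hspa8-201 and Hspa8-202 held 60.1% ± 3.18 and 36.9% ± 0.810 of the gene's TPM in the first table, but 74.5% ± 14.9 and 13.5% ± 6.20 in the second (SD, n = 3 each). The retained-intron transcript Dnajc19-205, of the mitochondrial import motor, likewise ranged from 2.03 to 7.86 TPM.

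**Figure D4:**
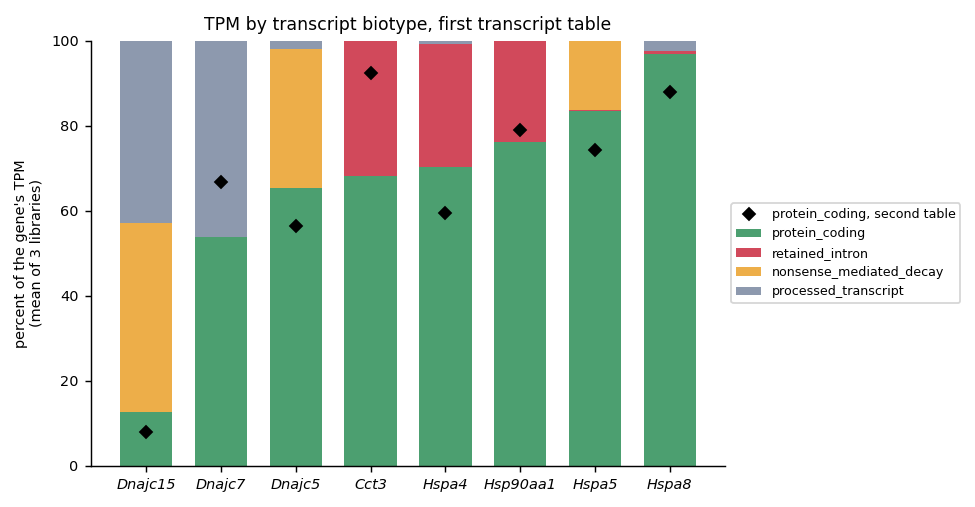
Percent of a gene's TPM (vertical axis, mean of 3 libraries) in transcripts of each annotated biotype for 8 chaperone genes in the first transcript table; black diamonds give the protein_coding share in the second table. Dnajc15 has the lowest coding share at 12.7%, and the diamond for Cct3, at 92.4%, lies well above its bar at 68.2%.

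At the level of whole genes the tables were close. After each was rescaled over protein-coding genes, 33 of the 36 chaperone genes with a mean of 5 TPM or more differed by at most 20% between the second transcript table and the gene table. The exceptions were Cct3, at 0.750 times its value in the gene table, Dnaja1, at 1.28 times, and Dnajc15, at 1.33 times. Dnajc14 (1.19 times) and Dnajc7 (0.869 times) were within that limit. Hspa8, Hspa5, Hsp90ab1 and Hsp90b1 were between 0.955 and 1.08 times.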

How the data were processed

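Total RNA of the cytosolic fraction, depleted of ribosomal RNA, was sequenced in 3 libraries of 1 group, taken from the labels. Per the notes and file headers deposited with every library, a gene table and a first transcript table came from transcriptome alignments and a second transcript table from the reads, on mm10 with GENCODE M21; which tools made them, and the strandedness, are not given in the sources used. The expected counts deposited by the authors are estimated read numbers and can be fractional: 55 of the 81 genes had whole values within 0.005 and 26 did not. The deposited TPM values have a fixed sum per library, so abundant short RNAs lower every mRNA. The deposited FPKM values are per kilobase at a common depth. The deposited interval bounds of TPM, treated as a score of unknown level, were not used in any result.

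Symbols and biotypes came from the second transcript table. Rows naming no gene, left out, held 0.402%, 0.108% and 0.122% of the counts. Detection meant at least 1 TPM in each of the 3 libraries. For differences between libraries TPM was rescaled to 1000000 over 21888 nuclear-encoded protein-coding genes, and log2(rescaled TPM + 1) was set against its mean over libraries. There was 1 condition and hence no comparison of groups. Counting error is small for the high genes (Hspa8 had at least 42740 expected counts) and large for genes with few counts. Rounded expected counts were normalised with edgeR 4.0.16 (TMM factors 1.04, 1.01 and 0.959 over 12430 genes) and DESeq2 1.42.0 as alternatives, with other limits, pseudocounts, tables and FPKM, and leaving out each library. The spread estimate was tested on simulated counts, not TPM, with an independent spread in some genes and counting error in all. Shifts shared by genes and errors of read assignment were not simulated. Coding sequences were aligned globally with Biopython 1.88, from M21 transcripts. Promoter windows are RefSeq's; bases annotated as exons in M21 are not shown beyond the elements. Protein sequences were not used here.

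The gene lists and the rule for naming genes (the 15 highest, the 3 highest of each family and companion list, the fixed lists, the largest and smallest SDs, those at 0 counts, and the lowest coding shares and largest differences between tables) were written with earlier results of these data known. Genes named beyond it, as exceptions or examples, were picked with their values in view.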

Additional observations from a re-analysis of the deposited data

Results flagged for a closer look

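Signal was present in rows of the gene table that the rule left out. Cct6a, annotated only with processed_transcript and retained_intron forms, had at least 2420.48 expected counts in a library, above the limit of 3 that a count of 0 allows. In the first transcript table its TPM lay mostly in Cct6a-202, with 20.6, 16.8 and 15.7 TPM, and Cct6a-201 had 0.80, 0.98 and 0.93 TPM. The second table divided it otherwise, with 6.74, 5.14 and 4.23 TPM in Cct6a-202 and 4.68, 4.42 and 3.27 TPM in Cct6a-201.

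Of 15 pseudogenes whose symbols match the rule, 11 had 0 expected counts in every library. Hspd1-ps3, a processed pseudogene, had at least 14.35 counts, or 0.19, 0.18 and 0.24 TPM. The 15 together had 0.19, 0.29 and 1.07 TPM in replicates 1, 2 and 3, against 36.5, 31.7 and 27.5 TPM for Hspd1 alone. Whether these counts are reads of the parent genes was not tested.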

How the results depend on the processing

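No paired analysis was possible because there is 1 group. The number of detected chaperone genes, 57, was 57 to 58 without 1 library, 49 in the second transcript table, 63 after rescaling, 60 with FPKM and 36 at a limit of 5 TPM. The share of all protein-coding genes is not given at these settings, so these counts cannot be set against the 40.7% of the main setting. Their median level of 4.54 TPM became 20.5 after rescaling, 1.82 TPM in the second table and 9.85 TPM over genes with a mean of 1 TPM or more. Their share of protein-coding TPM, 0.680%, was 0.803% of expected counts and 0.516% without Hspa8. The median spread between libraries, 0.088, was 0.161 with TPM as deposited, where all protein-coding genes had 0.157, and 0.0461 (without replicate 2) to 0.0871 (without replicate 1) with 1 library left out; protein-coding genes had 0.0829 and 0.0800 in those settings. The median coding share was 95.1% in the second table. With TPM as deposited the heat-inducible list had median deviations of 0.20 in replicate 1 and -0.20 in replicate 3. Over all protein-coding genes these were 0.14 and -0.13. On rescaled TPM the list had 0.03 and -0.03 there, and -0.02 and -0.03 without Hspa8, an alternative chosen after seeing the data. The ER list kept a deviation of -0.13 to -0.15 in replicate 2 with TPM as deposited, TMM, the second table and a pseudocount of 0.1, the settings run for it. In replicate 3 it had 0.11, but -0.06 with TPM as deposited. Levels of named genes moved by more than 1 SD for 35 of 42 genes in the second table as deposited; leaving out 1 of 3 libraries cannot move a mean that far and says nothing of stability. What sets the lower TPM of the second table was not tested. Depth limits chiefly the 24 genes with a mean below 1 TPM.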
